A study of Mus musculus with 12 samples.

Results

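Mouse mammary carcinomas taken 48 h after the start of mifepristone were compared with the same tumour line growing under medroxyprogesterone acetate. The comparison uses the 2 arrays whose source name is 48 h MFP and the 2 arrays whose source name is MPA, which are 4 of the 12 arrays of the series, and covers the 18193 genes that have a probe set with a single annotated symbol. All tumours were C4-HD, a transplantable mammary carcinoma grown in BALB/c mice that carried a pellet of MPA (medroxyprogesterone acetate, a synthetic progestin). For the MFP 48 h group the MPA pellet was taken out once the tumour reached 50 mm2 and a pellet of MFP (mifepristone, 10 mg/kg/day) was put under the skin. The tumours therefore differ in 2 respects at once, the loss of MPA and the presence of MFP. Another group, labelled no MPA and given saline for 48 h, lost MPA and received no MFP, and it serves here for a direct test against the 48 h tumours, as do the tumours taken at 24 h of MFP. The other arrays are 2 each at 6 h and 12 h of MFP. The treatment protocol calls saline tumours growing with MPA the control, whereas the saline arrays carry the source name no MPA, and the design text names no 6 h group, so the groups rest on the source names. The RNA was extracted from paraffin blocks fixed in formalin. The design text calls the 2 replicates of each group independent, but no label links an array to an animal, so the p-values measure the spread between arrays only.

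The progesterone receptor is a nuclear receptor that binds DNA as a dimer when a progestin occupies it and then recruits coactivators to its target genes. In the mammary gland its activation drives epithelial proliferation, partly through secreted signals such as RANKL (gene Tnfsf11) and WNT4. Mifepristone occupies the receptor and blocks its activation by progestins, and it also blocks the glucocorticoid receptor, which medroxyprogesterone acetate can activate. C4-HD depends on a progestin for its growth, and the question of the series is what its tumours express while they regress under mifepristone.

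A value in these data is the log2 ratio of an array to the mean, on the linear scale, of both MPA arrays, so that 0 is the MPA level and 1 is a doubling. Levels above background are lost in such ratios, and the labelled tissue cannot be checked against marker levels. Several arrays stood apart. Over the 31 measured genes of a list of exocrine pancreas, a digestive gland, the median reached 4.17 and 4.28 at 48 h of MFP against 0.36 and -0.49 in the MPA arrays, and it was 4.92 and 3.42 at 6 h. A list of 25 skeletal muscle genes had a median of 3.25 in MFP 48 h replicate 1 against -0.05 in replicate 2, and the MPA arrays were at 0.04 and -0.04. Between the MPA arrays, replicate 1 was the lower for stromal and myeloid genes, with a median over 29 macrophage genes of -0.72 against 0.48 and over 27 collagen genes of -0.82 against 0.52. The difference between the 3' and 5' probe sets of Actb, a measure of RNA integrity, was 0.47 and 0.59 at 48 h of MFP, against -0.07 and 0.05 with MPA. The part of this difference in the results was not tested. The plot of lists of other tissues shows these values for all 12 arrays.

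**Figure D1:**
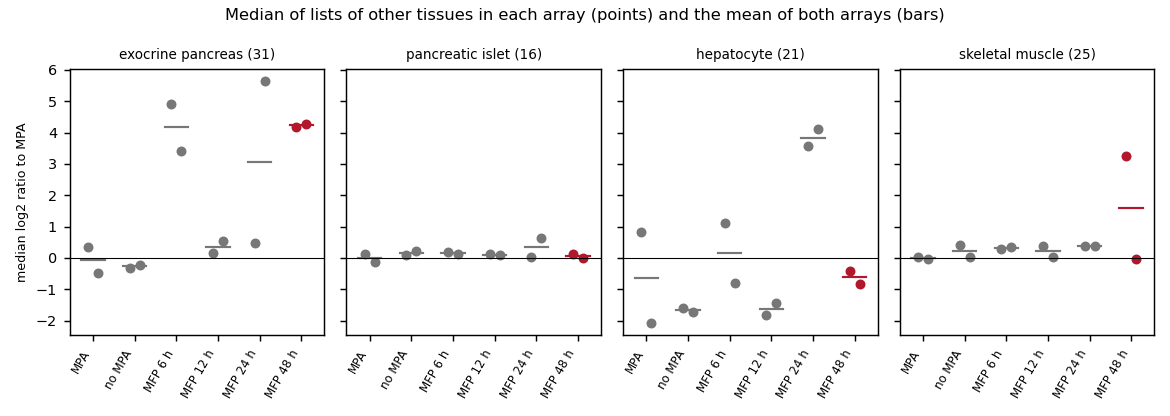
Median log2 ratio to the MPA mean (y axis) of 4 lists of genes from other tissues in each array (points, with the mean of both arrays as a bar) for the 6 groups (x axis), with the MFP 48 h group in red. The exocrine pancreas list was at 4.17 and 4.28 at 48 h, while the islet list was at 0.11 and -0.01. The hepatocyte list was highest at 24 h, at 3.56 and 4.11, and the muscle list was high in 1 of the 2 arrays at 48 h.

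At 48 h, 2272 of 18193 genes differed from MPA (12.5%, limma, Benjamini-Hochberg adjusted p under 0.05 over all genes), of which 1177 rose (6.47%) and 1095 fell (6.02%). The lists of cell division, ribosome production and lipid synthesis held falls and no rise, and the lists of macrophages, chemokines and collagens held rises and no fall. The change exceeded 1 on the log2 scale in 943 of the rises and 755 of the falls, and no gene with a change below 0.61 passed. The arrays of the groups did not overlap in 9707 genes (53.4%). After quantile normalization between arrays, 3 genes passed, none up and 3 down, against 1177 up and 1095 down as deposited. All 2272 genes kept their direction there, with a median size of 0.92 against 1.29, and 1947 genes (10.7%) had an unadjusted p under 0.05 in limma. The ratios make the MPA arrays narrower by construction, with an SD over genes of 0.29 and 0.30 against 0.81 and 0.75 at 48 h. Quantile normalization gives all arrays the same distribution, and the part of this in the loss of calls was not tested. With the 31 exocrine pancreas genes and 25 others that followed them over the arrays outside the comparison set apart, 2264 of the remaining 18137 genes were called, 1165 up and 1099 down. Single arrays carried many calls: leaving out replicate 1 or 2 of MPA gave 564 or 1855 calls, and leaving out replicate 1 or 2 of MFP 48 h gave 1033 or 1264. In all 4 of these fits together 220 rises and 190 falls were kept. Below, each count of a list is followed by the counts after leaving out these arrays in the same order. Where none rose or none fell, that describes the fit on all 12 arrays, and the bracket gives the other direction alone. A single gene is said to hold where it passed in all 4 fits. Probe sets of a gene often differed in the size of a change. The check covered 185 genes that passed and were named in the text or picked by the rules for naming. When probe sets were averaged, 57 of them changed over 1.5 times less or turned sign, and 25 no longer passed. The lists were written with earlier results of these data in view, so their counts describe them and are no independent evidence.

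**Figure D2:**
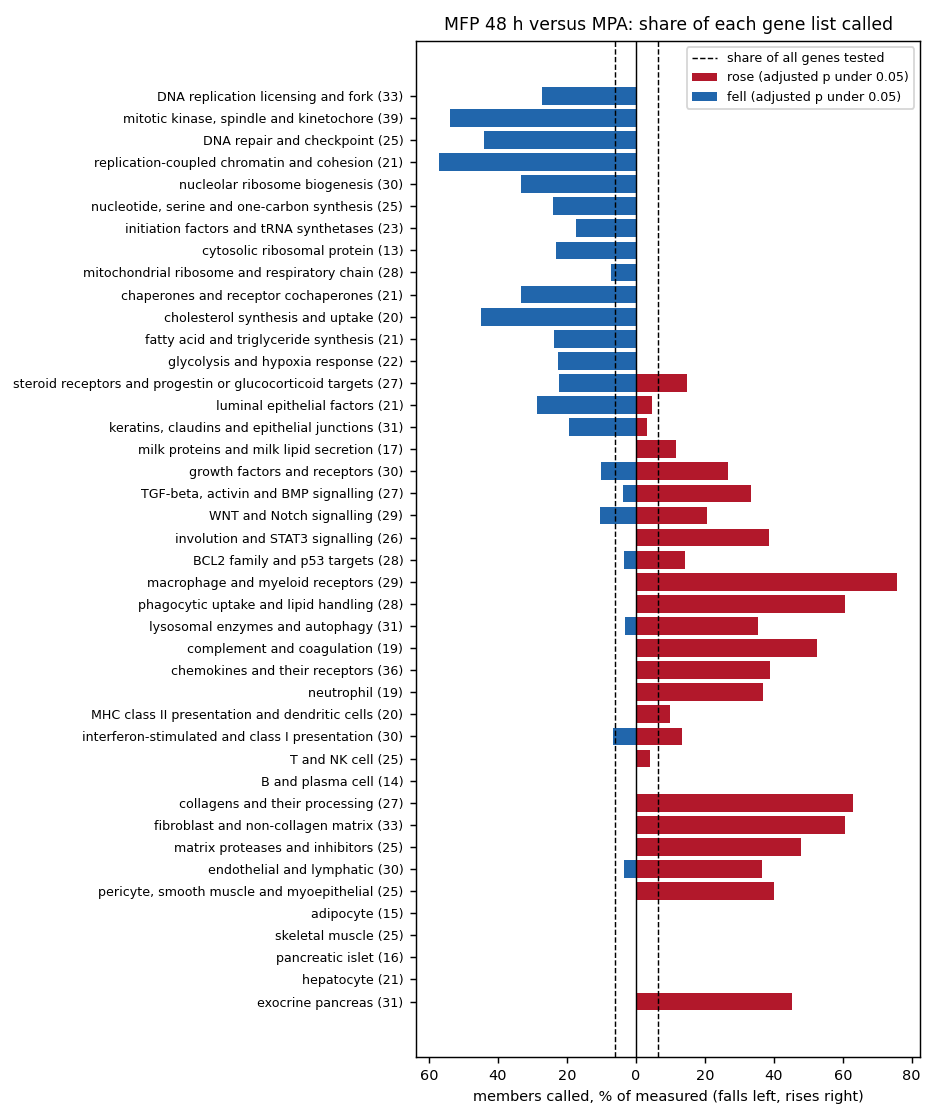
Share of the measured members of each gene list drawn (number measured in brackets) that rose (red, to the right) or fell (blue, to the left) at MFP 48 h against MPA at an adjusted p under 0.05. The dashed lines mark the shares of all genes tested, 6.47% for rises and 6.02% for falls. Lists of cell division lie to the left with no rise, and the macrophage list, with 22 of 29 members, reaches farthest to the right.

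Genes of mitosis fell together. Of 39 measured genes for mitotic kinases, the spindle and the kinetochore, 21 fell and none rose (8, 13, 15 and 13 falls with 1 array left out), and the median change was -1.15 against 0.00 over all genes. In these bulk samples fewer cells of a type and less RNA per cell cannot be told apart. Cenpa, the histone variant that marks centromeres, was at 0.29 and -0.36 in the MPA arrays and at -2.87 and -2.84 at 48 h. It fell by 2.82 ± 0.41 (SE), or 7.05-fold, with an adjusted p of 0.00461. Kif2c, a kinesin that takes microtubules off kinetochores, stood at 0.01 and -0.01 under MPA and at -2.0 and -2.92 at 48 h. Cdca8 and Incenp encode subunits of the chromosomal passenger complex, which corrects faulty attachments of chromosomes. Cdca8 was at -0.16 and 0.14 under MPA and at -1.69 and -2.26 at 48 h, a change of -1.97 ± 0.27. Incenp was at 0.11 and -0.11 under MPA and at -1.24 and -1.97 at 48 h. In each of these genes both 48 h arrays lay below both MPA arrays. Kif11, the motor that pushes spindle poles apart, reached -2.0 and -2.2 at 48 h. Cdc20, the activator of the anaphase-promoting complex, reached -1.01 and -1.53 at 48 h from -0.07 and 0.06. Cenpa, Kif2c, Cdca8, Incenp and Kif11 hold, and Cdc20 does not. With the probe sets of a gene averaged, Cdca8 was at -0.90 and Cdc20 at -0.59, and neither passed. The fall of Cenpa was then smaller, at -1.44, and still passed. Mki67, the Ki-67 antigen of cycling cells, was at -0.05 and 0.05 under MPA and at -1.40 and -2.10 at 48 h. Ccna2, cyclin A2, was at -0.76 and -0.75 at 48 h and did not pass (adjusted p 0.136), nor did Plk1 at -0.56 and -0.18 (adjusted p 0.411).

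The start of replication, repair of DNA and packaging of chromatin showed the same direction. Of 33 replication genes 9 fell and none rose (4, 6, 4 and 4), with a median of -0.87. Cdc7, the kinase that fires replication origins, was at -0.28 and 0.23 under MPA and at -2.42 and -4.0 at 48 h, a change of -3.19 ± 0.44 (adjusted p 0.00375). Prim1, the catalytic subunit of primase, was at -0.26 and 0.22 under MPA and at -1.19 and -1.70 at 48 h. Both 48 h arrays were lower than both MPA arrays in either gene, and the 48 h arrays lay farther apart for Cdc7. Of 25 repair and checkpoint genes 11 fell and none rose (3, 9, 6 and 5), with a median of -1.05. Exo1, an exonuclease of mismatch repair and recombination, was at 0.07 and -0.07 under MPA and at -1.83 and -1.88 at 48 h, a change of -1.85 ± 0.23. Of 21 genes for replication-coupled chromatin and sister chromatid cohesion 12 fell and none rose (3, 6, 5 and 8), with a median of -0.99. Suz12, a core subunit of the Polycomb complex that methylates histone H3, was at 0.19 and -0.21 under MPA and at -1.69 and -1.72 at 48 h. Dnmt1, which copies DNA methylation after replication, was at -0.08 and 0.08 under MPA and at -1.10 and -1.31 at 48 h. Cdc7, Exo1, Suz12 and Dnmt1 hold, and Prim1 does not.

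The promoters of 5 genes that fell are shown with short motifs, most of which recur in the promoters of these lists. Each is the 150 bases before the annotated start in RefSeq, build GRCm38.p6, written 5′ to 3′ on the gene's own strand. Capitals mark matches to the CCAAT box (CCAAT), the cell cycle homology region or CHR (TTTGAA), E2F motifs (TTCCCGC or TTCGCGC, and likewise TTGCCGC or TTGGCGC) or the sterol regulatory element (CACCCCAC), each searched on both strands. The positions are chr19:37376232-37376381 on the plus strand for Kif11, chr4:118437344-118437493 on the minus strand for Cdc20, chr10:128015065-128015214 on the plus strand for Prim1, chr13:8885456-8885605 on the plus strand for Idi1 and chr13:119690201-119690350 on the plus strand for Hmgcs1. The last 2 genes belong to cholesterol synthesis and are described with it. The letters CACCCCAC do not recur there: they stood in 1 of 19 windows of the cholesterol list, that of Hmgcs1. Sterol regulatory elements with other letters were not searched, so their absence cannot be read from this.
Kif11: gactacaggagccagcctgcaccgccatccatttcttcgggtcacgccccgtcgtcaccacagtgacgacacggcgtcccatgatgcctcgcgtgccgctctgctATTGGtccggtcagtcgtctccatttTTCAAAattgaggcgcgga
Cdc20: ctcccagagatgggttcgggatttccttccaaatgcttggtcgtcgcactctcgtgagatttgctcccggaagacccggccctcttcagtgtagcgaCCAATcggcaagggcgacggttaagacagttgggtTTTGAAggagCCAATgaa
Prim1: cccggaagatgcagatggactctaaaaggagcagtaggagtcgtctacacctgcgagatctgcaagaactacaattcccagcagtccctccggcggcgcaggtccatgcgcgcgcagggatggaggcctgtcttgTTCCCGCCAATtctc
Idi1: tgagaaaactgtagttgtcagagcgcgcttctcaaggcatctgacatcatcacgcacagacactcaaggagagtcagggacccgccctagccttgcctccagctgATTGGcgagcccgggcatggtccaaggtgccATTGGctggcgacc
Hmgcs1: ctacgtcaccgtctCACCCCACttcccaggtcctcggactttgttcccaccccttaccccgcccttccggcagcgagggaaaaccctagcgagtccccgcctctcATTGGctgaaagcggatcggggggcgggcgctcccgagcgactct

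In windows of 300 bases around starts, 250 before and 50 after, the CHR stood in 78.1% of 32 windows of the mitosis list and in 17.9% of all 32851 windows of the annotation. A CHR together with a CCAAT box stood in 68.8% of the mitosis windows and in 6.95% of all. The E2F motifs stood in 69.7% of 33 windows of the replication list and in 9.57% of all. In the prints of Kif11 and Cdc20 the CHR begins 19 and 18 bases before the start, and in Prim1 the E2F match begins 15 bases before it and overlaps a CCAAT box. The CHR stood in 27.3% of 22 windows of the macrophage list and in 15% of 20 windows of the collagen list, which rose. Together with a CCAAT box it stood in 18.2% and 0% of these windows. A match is a description of letters and shows no binding. The entries were found for 30 of the 39 mitosis genes, 27 of the 33 replication genes, 20 of the 29 macrophage genes and 18 of the 27 collagen genes.

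Regulators of entry into the cell cycle gave few calls, in both directions. Of 31 G1 cyclins, inhibitors of cyclin-dependent kinases and E2F or retinoblastoma family genes, 3 rose (1, 3, 1 and 1) and 4 fell (1, 3, 3 and 4). Over all genes 6.47% rose and 6.02% fell. Cdk6, a G1 kinase, was at -0.21 and 0.18 under MPA and at 1.64 and 1.99 at 48 h, a rise of 1.83 ± 0.30 (adjusted p 0.00641). Rbl1, the retinoblastoma relative p107, was at 0.20 and -0.23 under MPA and at -2.0 and -1.58 at 48 h. Ccnd2, cyclin D2, rose to 1.32 and 1.45 from -1.01 and 0.59. Cdkn1a, the inhibitor p21, rose by 0.92 ± 0.23, whereas Ccnd1, cyclin D1, was at -0.67 and -0.40 at 48 h and did not pass (adjusted p 0.176). Myc, a transcription factor of growth, fell by 1.46 ± 0.29. E2f7, a repressor of the E2F family, was at -1.01 and -1.22 at 48 h and at -1.22 and -1.20 in the no MPA arrays, and the direct difference was 0.10 ± 0.21 (adjusted p 0.840). Cdk6 and Rbl1 hold, and another probe set of Ccnd2 gave 0.56 and did not pass.

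Genes for making ribosomes and nucleotides fell, and chaperones fell with them. Of 30 nucleolar genes of ribosome biogenesis 10 fell and none rose (4, 7, 2 and 9), with a median of -0.70. Nolc1, a nucleolar phosphoprotein, was at 0.01 and -0.01 under MPA and at -2.60 and -1.82 at 48 h, a change of -2.21 ± 0.36 (adjusted p 0.00637). Ncl, nucleolin, was at -0.02 and 0.02 under MPA and at -1.78 and -1.31 at 48 h. Of 25 genes for nucleotide, serine and one-carbon synthesis 6 fell and none rose (2, 5, 4 and 3). Psat1, an enzyme of serine synthesis, was at -0.04 and 0.04 under MPA and at -1.97 and -2.71 at 48 h. Shmt2 and Mthfd1, which pass one-carbon units from serine to folate and onward, changed by -1.34 ± 0.20 and -1.51 ± 0.26. Of 21 chaperones and receptor cochaperones 7 fell and none rose (0, 3, 0 and 4). Hsp90aa1, the inducible HSP90 that holds steroid receptors ready for ligand, was at -0.06 and 0.06 under MPA and at -1.31 and -0.91 at 48 h. Hspd1, the mitochondrial chaperonin, fell by 1.25 ± 0.24 and Hspa8, the constitutive HSC70, fell by 1.08 ± 0.26. Of 23 initiation factors and tRNA synthetases 4 fell (0, 1, 0 and 1), of 28 genes of the mitochondrial ribosome and respiratory chain 2 fell (1, 1, 2 and 2), and of 13 measured cytosolic ribosomal proteins 3 fell (0, 3, 1 and 1), against 6.02% of all genes. Ncl, Nolc1, Shmt2 and Mthfd1 hold, and none of the chaperones do. Another probe set of Hspa8 gave -0.36 and did not pass.

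Genes of the pathway from acetyl-CoA to cholesterol fell. Of 20 genes for cholesterol synthesis and uptake 9 fell and none rose (3, 7, 5 and 6), with a median of -1.25. Idi1, the isomerase that makes dimethylallyl diphosphate, was at 0.23 and -0.28 under MPA and at -3.70 and -3.27 at 48 h. It fell by 3.46 ± 0.43 (adjusted p 0.00308). Fdft1, squalene synthase, was at 0.00 in both MPA arrays and at -1.80 and -1.78 at 48 h. Hmgcs1, which makes HMG-CoA, was at 0.48 and -0.73 under MPA and at -1.46 and -1.93 at 48 h. The MPA arrays lay farther apart for Hmgcs1, at more than 1 on the log2 scale, than for Fdft1. Sqle and Lss, which turn squalene into lanosterol, changed by -1.51 ± 0.33 and -1.50 ± 0.33. Insig1, which holds the sterol sensor in the endoplasmic reticulum, was at -1.86 and -1.18 at 48 h and at -1.54 and -1.46 in the no MPA arrays, a direct difference of -0.02 ± 0.34. Of 21 fatty acid and triglyceride synthesis genes 5 fell and none rose (2, 3, 2 and 4). Fasn, fatty acid synthase, fell by 1.14 ± 0.18, and Acss2, which makes acetyl-CoA from acetate, fell by 1.58 ± 0.27. Elovl6, a fatty acid elongase, fell by 2.21 ± 0.49. Of 22 glycolysis and hypoxia genes 5 fell and none rose (6, 3, 3 and 2). Pdk1, the kinase that restrains pyruvate dehydrogenase, was at -0.09 and 0.09 under MPA and at -1.93 and -2.07 at 48 h, a change of -2.00 ± 0.28. Tpi1 and Pgk1, both glycolytic enzymes, changed by -1.28 ± 0.19 and -1.16 ± 0.23. The CCAAT box stood in 84.2% of 19 promoter windows of the cholesterol list and in 37.4% of all. It stood in 75%, 57.6%, 45.5% and 30% of the mitosis, replication, macrophage and collagen windows. CACCCCAC stood in 1 cholesterol window, that of Hmgcs1 (5.26%, against 2.87% of all). Idi1, Fdft1, Fasn, Acss2, Pdk1 and Tpi1 hold, and another probe set of Pdk1 gave -1.64 (adjusted p 0.0564). Averaged over probe sets, the change of Fdft1 was smaller, at -0.73, and still passed.

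**Figure D3:**
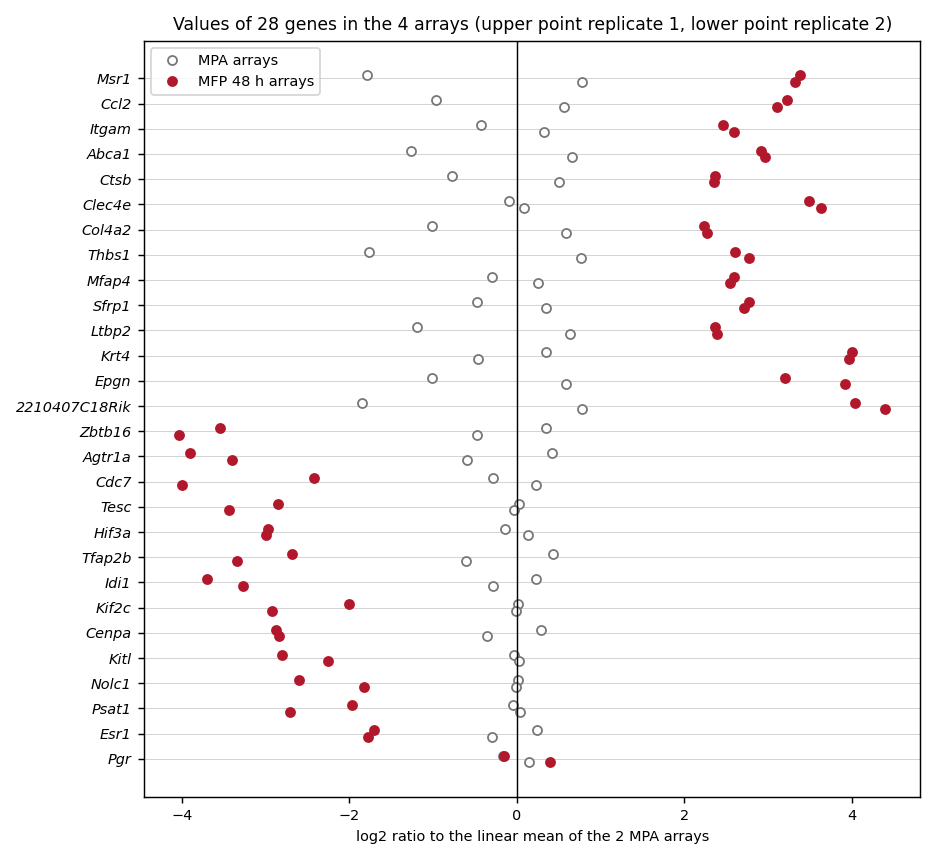
Log2 ratio to the linear MPA mean (x axis) of 28 genes in the 2 MPA arrays (open points) and the 2 MFP 48 h arrays (red points), with replicate 1 above replicate 2. The 48 h points of Msr1 are at 3.38 and 3.32 and those of Zbtb16 at -3.54 and -4.03, clear of the MPA points, while those of Pgr overlap them.

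Receptors and targets of progestins and glucocorticoids did not move as a block. Of 27 measured genes 4 rose (2, 5, 2 and 3) and 6 fell (4, 6, 4 and 5), and the median was 0.02. The median was -0.02 when the probe sets of a gene were averaged. Zbtb16, a transcription repressor induced by both steroids, was at 0.35 and -0.47 under MPA and at -3.54 and -4.03 at 48 h. Its fall was the largest outside the pancreas set among genes that passed and whose arrays did not overlap. Klf9, a zinc finger factor induced by glucocorticoids, was at 0.28 and -0.35 under MPA and at -1.41 and -1.52 at 48 h. Pgr, the progesterone receptor itself, was at -0.17 and 0.15 under MPA and at -0.15 and 0.40 at 48 h, and the groups overlapped. In the no MPA arrays Pgr was at 1.90 and 2.50, and the direct test of 48 h against no MPA gave -2.08 ± 0.29 (adjusted p 0.00282). Esr1, the estrogen receptor, was at 0.24 and -0.29 under MPA, -0.85 and -0.59 without MPA and -1.71 and -1.78 at 48 h. The direct difference of 48 h from no MPA in Esr1 was -1.02 ± 0.24 (adjusted p 0.0213). Ddit4, a brake on mTORC1 induced by glucocorticoids, was at -2.07 and -1.81 at 48 h and at -0.02 and -0.15 without MPA, a difference of -1.86 ± 0.25 (adjusted p 0.00268). Fkbp5, a cochaperone of steroid receptors, was at -1.56 and -1.32 at 48 h and at -0.73 and -0.67 without MPA, and that difference did not pass (-0.74 ± 0.26, adjusted p 0.0957). Ncoa3, a coactivator of steroid receptors, rose by 0.84 ± 0.22. Tnfsf11 was at 0.42 and 0.26 at 48 h and Wnt4 at -0.20 and -0.02, and neither passed against MPA (adjusted p 0.415 and 0.908). Zbtb16, Esr1 and Ddit4 hold, and Klf9, Fkbp5 and Ncoa3 do not. Another probe set of Fkbp5 gave -0.42 (adjusted p 0.440), and Klf9 and Ncoa3 did not pass with probe sets averaged (-0.94 and 0.50).

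**Figure D4:**
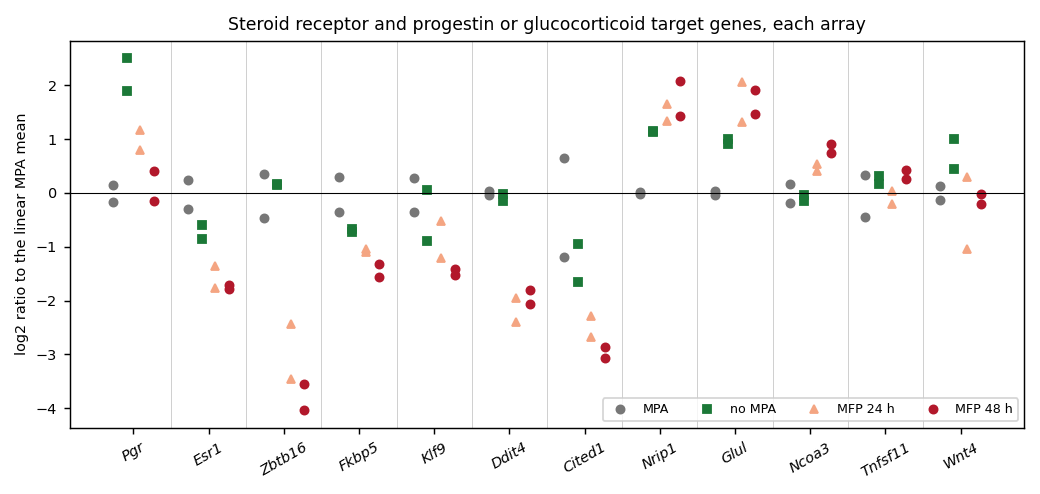
Log2 ratio to the linear MPA mean (y axis) of 12 steroid receptor, coregulator and target genes (x axis) in each array of 4 groups. Pgr is highest in the no MPA arrays, at 1.90 and 2.50, and within the MPA range or just above it at 48 h, while Zbtb16 stays near 0 without MPA and is at -3.54 and -4.03 at 48 h.

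Several transcription factors of luminal epithelium and genes of its desmosomes fell. Of 21 luminal factors 6 fell (0, 6, 2 and 4) and 1 rose, Runx1 (0, 1, 1 and 1). Grhl1, a grainyhead factor of epithelial barriers, was at 0.39 and -0.53 under MPA and at -2.28 and -2.05 at 48 h, a change of -2.09 ± 0.37 (adjusted p 0.00869). Klf5, a Krüppel-like factor of epithelial progenitors, was at 0.37 and -0.49 under MPA and at -1.74 and -2.04 at 48 h, while another of its probe sets gave a change of 0.10. Gata3, which specifies luminal cells, was at 0.17 and -0.19 under MPA and at -3.02 and -1.37 at 48 h, so that the 48 h arrays lay apart. Tfap2a, the AP-2 alpha factor, was at 0.18 and -0.21 under MPA and at -2.11 and -1.33 at 48 h. Of 31 keratin, claudin and junction genes 6 fell (1, 3, 2 and 2) and 1 rose, Cldn4 (0, 1, 1 and 0). Dsp and Pkp2, which tie desmosomes to keratin filaments, changed by -1.81 ± 0.37 and -1.80 ± 0.22, and Dsg2, a desmosomal cadherin, fell by 1.15 ± 0.33. Krt8, a luminal keratin, was at 0.02 and -0.02 under MPA and at -0.15 and 0.18 at 48 h (adjusted p 0.984), and Cdh1, E-cadherin, was at 0.21 and 0.47 at 48 h (adjusted p 0.326). Epcam, an epithelial adhesion protein, fell by 0.81 ± 0.21. Pkp2 holds, and without MPA replicate 1 no luminal factor passed. Another probe set gave -0.75 for Tfap2a, -0.13 for Dsp and -0.85 for Dsg2, none of which passed, and -0.89 for Pkp2, which did. Averaged over probe sets, Epcam was at -0.57 and did not pass.

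Growth factors and their receptors changed in both directions. Of 30 growth factors and receptors 8 rose (1, 8, 4 and 7) and 3 fell (2, 3, 1 and 4), where 6.47% of all genes rose and 6.02% fell. Kitl, stem cell factor, was at -0.03 and 0.03 under MPA and at -2.81 and -2.26 at 48 h, a change of -2.54 ± 0.27 (5.81-fold, adjusted p 0.00227). In the no MPA arrays Kitl was at -0.13 and 0.24, and the direct difference was -2.59 ± 0.27 (adjusted p 0.00145). Pdgfra and Pdgfrb, receptors for platelet-derived growth factors, rose by 1.47 ± 0.29 and 1.63 ± 0.31 (another probe set of Pdgfra gave -0.13), and their ligands Pdgfa and Pdgfb by 1.07 ± 0.31 and 1.19 ± 0.21. Igf1, insulin-like growth factor 1, was at 1.82 and 0.97 at 48 h and at 3.50 and 3.68 at 24 h, where the hepatocyte list was also high, with a median of 3.56 and 4.11. Of the 6 IGF binding proteins Igfbp4 and Igfbp7 rose (1, 1, 1 and 2), and Igfbp7, which is abundant in vessels, was at -0.57 and 0.40 under MPA and at 2.01 and 1.91 at 48 h.

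Of 27 genes of TGF-beta, activin and BMP signalling 9 rose (3, 10, 4 and 5) and 1 fell, Bmpr1a (0, 0, 0 and 1). Ltbp1 and Ltbp2 encode proteins of the family that binds latent TGF-beta or fibrillin in the matrix. Ltbp2 was at -1.19 and 0.64 under MPA and at 2.37 and 2.39 at 48 h, a rise of 2.65 ± 0.52 (adjusted p 0.0117). Ccn2, a matricellular target of TGF-beta, was at -0.70 and 0.47 under MPA and at 1.76 and 1.86 at 48 h. Tgfbr1, the type I receptor, was at 0.04 and -0.04 under MPA and at 1.38 and 1.25 at 48 h, with 24 h at -0.37 and -0.11. With the probe set chosen by its spread over the arrays outside the comparison, Tgfbr1 gave -0.03. It was higher at 48 h than at 24 h by 1.55 ± 0.20 (adjusted p 0.00258), a direct test that 0.621% of all genes passed in that direction. Of 29 WNT and Notch genes 6 rose (1, 5, 3 and 2) and 3 fell (0, 0, 0 and 1). Sfrp1, a secreted WNT antagonist, was at -0.47 and 0.35 under MPA and at 2.78 and 2.72 at 48 h, and it was at 0.03 and 0.50 at 24 h. Jag1, a Notch ligand, was at -0.14 and 0.13 under MPA and at -1.37 and -1.16 at 48 h, whereas the receptor Notch2 was at 1.12 and 1.38. Kitl, Igfbp7, Tgfbr1, Bmp2, Ccn2 and Sfrp1 hold, and the PDGF genes, Ltbp2 and Jag1 do not. Averaged over probe sets, Pdgfa, Bmpr1a and Jag1 did not pass, at 0.82, -0.43 and -0.64.

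Genes of macrophages rose together. Of 29 macrophage and myeloid receptor genes 22 rose and none fell (11, 26, 10 and 12), with a median of 1.82, and against no MPA 24 rose, where 7.49% of all genes did. Itgam, the integrin CD11b, was at -0.43 and 0.33 under MPA and at 2.46 and 2.60 at 48 h, a rise of 2.58 ± 0.30 (5.99-fold, adjusted p 0.00273). Adgre1, a surface receptor of mature macrophages, was at -0.79 and 0.51 under MPA and at 2.46 and 2.26 at 48 h. Spi1, the transcription factor PU.1 of myeloid cells, was at -0.38 and 0.30 under MPA and at 1.71 and 1.50 at 48 h. Csf1r, the receptor for the macrophage growth factor CSF1, rose by 1.76 ± 0.41. In each, both 48 h arrays were above both MPA arrays, and MPA replicate 1 was the lower of its group. Itgam was at 0.45 and 0.97 at 24 h and higher at 48 h by 1.82 ± 0.30 (adjusted p 0.0115). Clec4n, dectin-2, was at -0.50 and 0.80 at 24 h and at 2.04 and 2.38 at 48 h, a difference of 2.06 ± 0.35 (adjusted p 0.0124). These were the 2 members that passed against 24 h. The list's median was 1.80 and 1.79 in the 48 h arrays. It was -0.31 and -0.43 in the 6 h arrays, in which the pancreas list was as high as 4.92 and 3.42. The part of pancreas tissue in the macrophage rises was not tested. Itgam, Adgre1 and Clec4n hold.

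Genes for taking up debris and handling lipid rose as well. Of 28 genes for phagocytic uptake and lipid handling 17 rose and none fell (6, 17, 8 and 12), with a median of 1.33. Abca1, which exports cholesterol to apolipoproteins, was at -1.26 and 0.66 under MPA and at 2.92 and 2.96 at 48 h, a rise of 3.23 ± 0.58 (9.41-fold, adjusted p 0.00903). Lipa, the lysosomal acid lipase, was at -0.59 and 0.42 under MPA and at 2.53 and 2.45 at 48 h. Npc1 carries cholesterol out of the lysosome, and it was at 0.01 and -0.01 under MPA and at 1.25 and 1.24 at 48 h. Abcg1, a sterol exporter, rose by 1.46 ± 0.24, and Axl and Mertk, receptors for apoptotic cells, by 1.61 ± 0.35 and 1.54 ± 0.36. Cd36, a scavenger receptor for lipid that adipocytes and vessels also express, was at -0.17 and 0.15 under MPA and at 3.86 and 3.17 at 48 h. Of 31 lysosome and autophagy genes 11 rose (4, 13, 5 and 5) and 1 fell, Gabarapl1 (0, 0, 0 and 0). Ctsb, cathepsin B, was at -0.77 and 0.50 under MPA and at 2.37 and 2.36 at 48 h, a rise of 2.50 ± 0.34. Of 19 complement and coagulation genes 10 rose and none fell (5, 13, 2 and 5). C3ar1 and C5ar1, receptors for the complement anaphylatoxins, rose by 3.08 ± 0.63 and 2.93 ± 0.76, and C1qa, C1qb and C1qc, the chains of C1q, by 1.60 ± 0.36, 2.20 ± 0.47 and 2.03 ± 0.42. In C5ar1 the MPA arrays lay at -2.47 and 0.86. F13a1, factor XIII A, was at 1.93 and 1.94 at 48 h and at -2.10 and -2.04 without MPA, and the direct difference was 4.01 ± 0.47 (adjusted p 0.00192). Abcg1, Lipa, Npc1 and Ctsb hold, and Abca1, Cd36 and the complement genes named here do not. Another probe set of Lipa gave 0.53 and did not pass, nor did Gabarapl1 averaged over probe sets, at -0.43.

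Chemokines that attract monocytes and neutrophils rose. Of 36 chemokines and receptors 14 rose and none fell (5, 18, 7 and 10), with a median of 1.45. Ccl2, the main ligand of CCR2, was at -0.96 and 0.57 under MPA and at 3.23 and 3.11 at 48 h, a rise of 3.36 ± 0.48 (10.3-fold, adjusted p 0.00394). Ccl3, a chemokine that macrophages secrete, was at -0.21 and 0.18 under MPA and at 3.19 and 3.03 at 48 h, and it was at 2.65 and 2.87 at 24 h already. Ccl7 was at -0.82 and 0.52 under MPA and at 2.68 and 3.23 at 48 h. Ccl6 had the largest difference from no MPA among the genes named by the direct test: it was at -3.64 and -2.51 without MPA and at 2.29 and 2.35 at 48 h, a difference of 5.40 ± 0.54 (adjusted p 0.00145). Under MPA it was at -0.77 and 0.50. Ccr1, a receptor on myeloid cells, was at -2.01 and 0.81 under MPA and at 2.98 and 2.67 at 48 h. Ccl8, Ccl9, Ccl6, Ccr2 and Cxcr2 were higher at 48 h than at 24 h, by 1.70 to 3.23. Ccl2, Ccl3 and Ccl7 hold, and Ccr1 and Ccl6 do not.

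Some neutrophil genes rose, and lymphocyte genes gave hardly any calls. Of 19 neutrophil genes 7 rose and none fell (2, 9, 4 and 8), with a median of 2.11, and the list's median was 2.09 in MFP 48 h replicate 1 and 0.91 in replicate 2. Clec4e, the receptor Mincle that macrophages also express, was at -0.09 and 0.09 under MPA and at 3.49 and 3.63 at 48 h, a rise of 3.56 ± 0.30 (11.8-fold, adjusted p 0.000701). Cxcr2, the receptor for neutrophil chemokines, was at -0.63 and 0.44 under MPA and at 1.63 and 2.59 at 48 h. S100a8, a calcium-binding alarmin, was at -1.33 and 0.68 under MPA and at 4.76 and 3.26 at 48 h. S100a9, its partner, was at 4.72 and 2.46 at 48 h and at -1.93 and 0.80 under MPA, and it did not pass (adjusted p 0.0725). Of 25 T and NK cell genes 1 rose, Thy1 (1, 2, 1 and 1), which fibroblasts also express. Cd3e, a chain of the T cell receptor complex, was at 1.08 and 0.22 at 48 h (adjusted p 0.338) and Cd8a at 1.62 and 0.06 (adjusted p 0.330). Of 14 B and plasma cell genes and of 13 mast cell and eosinophil genes none passed. Of 20 genes for MHC class II and dendritic cells Ctss and Fscn1 rose (1, 3, 1 and 0). Clec4e holds. Averaged over probe sets, Clec4e was at 2.18 and still passed, while Fscn1 did not pass, at 0.95.

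Matrix genes rose in most members. Of 27 collagens and collagen-processing genes 17 rose and none fell (5, 20, 8 and 6), with a median of 1.71. Col4a1 and Col4a2, the chains of basement membrane collagen, rose by 2.07 ± 0.37 and 2.46 ± 0.43. Col4a2 was at -1.01 and 0.59 under MPA and at 2.24 and 2.27 at 48 h. Col6a1, Col6a2 and Col6a3, of the beaded filaments around cells, rose by 1.76 ± 0.22, 1.60 ± 0.20 and 2.08 ± 0.36. Col1a1, the main chain of fibrillar collagen, was at -0.99 and 0.58 under MPA and at 1.42 and 1.81 at 48 h. Lox, which crosslinks collagen, rose by 2.13 ± 0.62. Of 33 fibroblast and other matrix genes 20 rose and none fell (7, 24, 10 and 9), with a median of 1.56. Mfap4, a microfibril protein, was at -0.30 and 0.25 under MPA and at 2.60 and 2.55 at 48 h, a rise of 2.60 ± 0.23 (6.06-fold, adjusted p 0.000889). Thbs1, thrombospondin 1, was at -1.77 and 0.77 under MPA and at 2.61 and 2.77 at 48 h. Twist1 and Meox1, mesenchymal transcription factors, were at 1.45 and 1.46 and at 1.07 and 1.17 at 48 h, and both were higher than at 24 h, by 1.46 ± 0.28 and 1.42 ± 0.25. Of 25 matrix proteases and inhibitors 12 rose and none fell (7, 15, 9 and 7). Timp3, an inhibitor held in the matrix, was at -0.36 and 0.29 under MPA and at 2.17 and 2.61 at 48 h, and Reck, a membrane-bound inhibitor, rose by 2.36 ± 0.44. Mmp3, stromelysin, was at 0.29 and -0.36 under MPA, stayed at 0.01 and -0.56 after 24 h and reached 1.10 and 1.84 by 48 h. The named collagens of types IV and VI, Mfap4 and Timp3 hold, and Col1a1, Lox, Thbs1 and Reck do not. Averaged over probe sets, Lox was at 1.08 and did not pass. Both 6 h arrays, with the pancreas list at 4.92 and 3.42, had a collagen median of -0.44 and 0.07. At 24 h the pancreas list was at 0.49 and 5.63 and the collagen median at 0.84 and 0.65. The part of pancreas tissue in the matrix rises was not tested.

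Some vessel genes rose. Of 30 endothelial and lymphatic genes 11 rose (2, 12, 5 and 4) and 1 fell, Vwf (0, 1, 0 and 1), with a median of 1.09. Vcam1, an adhesion molecule for leukocytes, was at -0.15 and 0.13 under MPA and at 2.66 and 1.89 at 48 h, a rise of 2.28 ± 0.30 (4.87-fold, adjusted p 0.00357). Selp, P-selectin of activated endothelium and platelets, was at -0.38 and 0.30 under MPA and at 2.96 and 2.04 at 48 h. Sox18, an endothelial transcription factor, was at -0.64 and 0.44 under MPA and at 1.78 and 2.31 at 48 h. Cdh5, the cadherin of endothelial junctions, rose by 1.27 ± 0.28, and Pdpn, podoplanin of lymphatic vessels and fibroblasts, by 1.90 ± 0.39. Vwf, von Willebrand factor, was at 0.30 and -0.39 under MPA and at -1.76 and -1.66 at 48 h. Of 25 pericyte, smooth muscle and myoepithelial genes 10 rose and none fell (2, 10, 3 and 7). Mylk, the kinase that starts smooth muscle contraction, was at -0.06 and 0.06 under MPA and at 2.39 and 1.53 at 48 h, and Tagln, a smooth muscle actin-binding protein, rose by 2.30 ± 0.62. The skeletal muscle list stood at 3.25 in the first 48 h array and at -0.05 in the second, and Abcc9 and Synpo2, which muscle also expresses, stood at 2.44 and 2.17 in the former and at 0.80 in the latter. Another probe set of Synpo2 gave a change of -0.32. Of the 25 skeletal muscle genes none passed (0, 0, 0 and 15), and their part in these rises was not tested. Vcam1 and Mylk hold, and another probe set of Cdh5 gave 0.85 and did not pass. Averaged over probe sets, the rise of Vcam1 was smaller, at 1.09, and still passed.

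**Figure D5:**
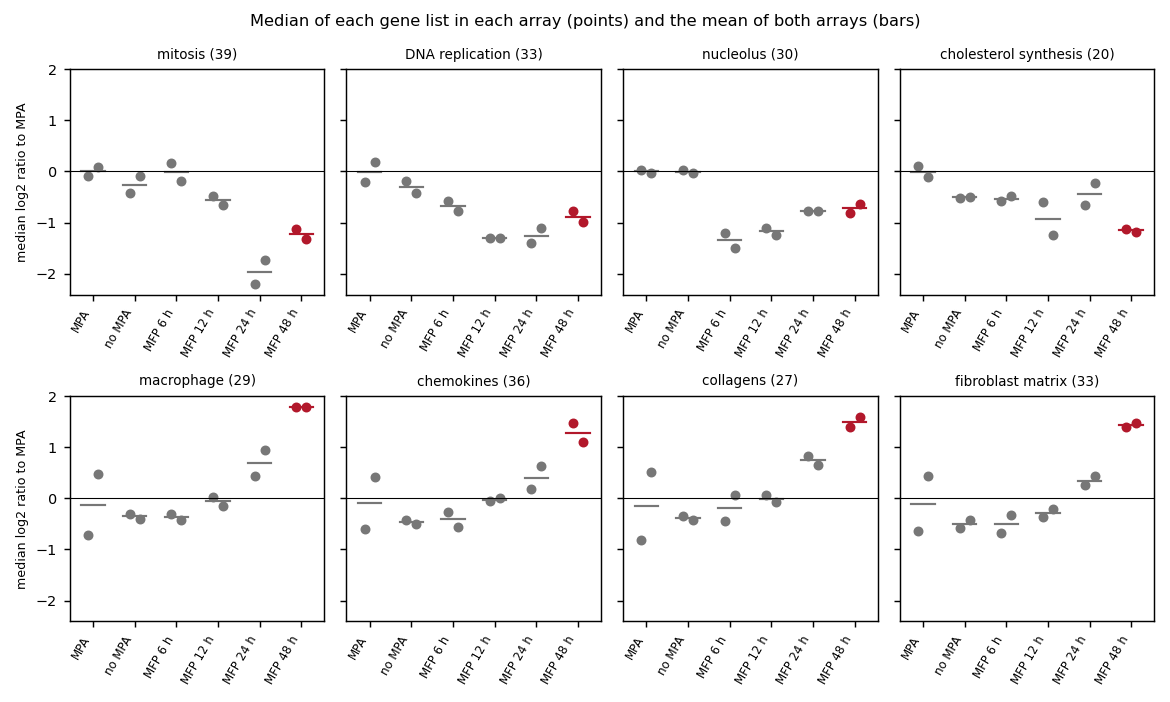
Median log2 ratio to the MPA mean (y axis) of 8 gene lists in each array (points, with the mean of both arrays as a bar) for the 6 groups (x axis), with the MFP 48 h group in red. The mitosis list was at -1.13 and -1.32 at 48 h and at -2.21 and -1.74 at 24 h, and the macrophage list was at 1.80 and 1.79 at 48 h, above both MPA arrays at -0.72 and 0.48.

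The death and remodelling genes of mammary involution rose in part. Of 26 genes of involution and STAT3 signalling 10 rose and none fell (3, 12, 9 and 2). Osmr, the oncostatin M receptor, was at -1.47 and 0.71 under MPA and at 1.66 and 1.90 at 48 h, and Socs3, which STAT3 induces and which curbs it, was at -1.16 and 0.63 under MPA and at 1.73 and 1.80. Saa3, an acute phase protein of macrophages and epithelium, rose by 2.53 ± 0.59. Pik3r1, whose products are the regulatory subunits of PI3 kinase, was at -0.46 and 0.35 under MPA and at 1.35 and 1.50 at 48 h, a rise of 1.48 ± 0.29 (adjusted p 0.0126). Many of these genes are also active in macrophages, whose list rose in 22 of 29 members. The part of macrophages in the rises of the involution list was not tested. Of 28 BCL2 family and p53 target genes 4 rose (0, 3, 0 and 3) and 1 fell (1, 0, 0 and 0). Phlda3, a p53 target that restrains AKT, rose by 1.12 ± 0.31, and Hrk, a BH3-only activator of cell death, fell by 1.53 ± 0.33. Osmr, Socs3, Saa3, Pik3r1, Phlda3 and Hrk do not hold, and averaged over probe sets Osmr did not pass, at 1.43. Ctsb, described above, also belongs to the involution list and holds. Of 17 milk genes Xdh and Plin2, of the milk fat globule, rose (1, 3, 1 and 3), while the caseins did not: Csn2 was at -0.51 and 0.11 at 48 h (adjusted p 0.925) and Csn3 at 0.22 and 0.56 (adjusted p 0.754). Plin2 holds.

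The largest single changes outside the pancreas set, among genes that passed and whose arrays did not overlap, included genes of no list. Among the rises, 2210407C18Rik, whose function is not described here, was at -1.85 and 0.78 under MPA and at 4.04 and 4.40 at 48 h, a rise of 4.75 ± 0.84 (adjusted p 0.00851). Krt4, a keratin of stratified mucosal epithelium, was at 0.35 and -0.46 under MPA and at 4.0 and 3.97 at 48 h. Epgn, epigen, a ligand of the EGF receptor, was at -1.01 and 0.59 under MPA and at 3.20 and 3.92 at 48 h. All 3 stood above both MPA arrays without MPA as well: 2210407C18Rik was at 1.82 and 0.81, Krt4 at 1.54 and 2.81 and Epgn at 2.26 and 3.34 in the no MPA arrays. The direct test of 48 h against no MPA passed for 2210407C18Rik (2.91 ± 0.84, adjusted p 0.0491) and Krt4 (1.81 ± 0.42, adjusted p 0.0202) and did not for Epgn (0.76 ± 0.60, adjusted p 0.479). Adgra1, an adhesion receptor of the G protein-coupled family, was at -0.07 and 0.07 without MPA and at 3.99 and 2.88 at 48 h. Clca3b, of the family of calcium-activated chloride channel regulators, was at 3.10 and 3.72 at 48 h, and Chil3, a chitinase-like protein of macrophages and neutrophils, at 4.43 and 1.99.

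Among the falls, Agtr1a, the angiotensin II receptor, was at 0.42 and -0.60 under MPA and at -3.90 and -3.40 at 48 h, a change of -3.56 ± 0.33 (11.8-fold, adjusted p 0.00119). Tesc, a calcium-binding protein, was at 0.03 and -0.03 under MPA and at -2.85 and -3.44 at 48 h. Sstr3, a somatostatin receptor, was at 0.15 and -0.17 under MPA and at -2.96 and -3.34 at 48 h. Hif3a, a HIF alpha subunit whose products can restrain the hypoxia response, was at -0.14 and 0.13 under MPA and at -2.97 and -3.0 at 48 h. Tfap2b, the AP-2 beta factor, was at 0.43 and -0.61 under MPA and at -2.68 and -3.34 at 48 h. In the no MPA arrays Agtr1a was at 0.35 and -0.15, Tesc at -0.13 and -0.54, Sstr3 at 0.24 and -0.38, Hif3a at -0.05 and -0.00, and Tfap2b at 1.04 and 0.19. Each of them was lower at 48 h than without MPA, with differences from -3.75 to -2.81 and adjusted p-values of 0.00145 to 0.00216. Nrxn3, a neurexin, and Ak4, a mitochondrial adenylate kinase, changed by -3.06 ± 0.60 and -2.91 ± 0.52. Of the rises and falls named here Krt4, Epgn, Adgra1, Clca3b, Ak4, Agtr1a, Tesc, Sstr3, Hif3a and Tfap2b hold. Averaged over probe sets, the changes of Tesc, Sstr3, Hif3a and Ak4 were smaller, at -1.58, -1.59, -1.28 and -1.6, and still passed. Agtr1a and Tfap2b were then at -3.56 and -2.77.

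Directly against the no MPA group, 2277 genes differed at 48 h, 1362 higher (7.49%) and 915 lower (5.03%). This test sets tumours with mifepristone against tumours that had lost MPA for the same time. Of the 39 mitosis genes 16 were lower than without MPA and none higher, of the 29 macrophage genes 24 were higher, of the 33 fibroblast genes 26 were higher, and of the 20 cholesterol genes 4 were lower. Directly against 24 h, 427 genes differed, 113 higher (0.621%) and 314 lower (1.73%). Of the mitosis genes 4 were higher at 48 h than at 24 h: Pbk, Spc25, Hmmr and Prc1. Spc25, a subunit of the kinetochore complex that grips microtubules, was at -2.52 and -2.23 at 24 h and at -1.18 and -0.79 at 48 h, a difference of 1.39 ± 0.25 (adjusted p 0.0150). Pbk, a mitotic kinase, was at -2.63 and -2.42 at 24 h and at -1.21 and -0.77 at 48 h. Hmmr and Prc1, which organise spindle microtubules, did not pass against MPA at 48 h (adjusted p 0.193 and 0.102), with 48 h values of -1.13 and -0.59 and of -0.74 and -0.57. Prim1 was also higher at 48 h than at 24 h, by 1.20 ± 0.27, whereas the differences of Suz12 and Acss2 were -1.29 ± 0.23 and -1.62 ± 0.27. Of the 21 hepatocyte genes 14 were lower at 48 h than at 24 h, where their median was 3.56 and 4.11.

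The exocrine pancreas genes, which are included in the counts of all genes unless said otherwise, had the largest rises. Of 31 measured genes 14 rose and none fell (6, 0, 0 and 0), with a median of 4.85. Reg3b, a lectin of the regenerating family, was at 0.14 and -0.16 under MPA and at 7.29 and 6.95 at 48 h, a rise of 7.13 ± 1.97 (140-fold, adjusted p 0.0412). Ctrb1, a chymotrypsinogen, was at 0.80 and -1.93 under MPA and at 6.07 and 6.65 at 48 h, and Rnase1, pancreatic ribonuclease, was at 0.87 and -2.57 and at 5.80 and 6.28. Reg2, Cpb1 and Prss2, the other large rises of the list, rose by 7.09 ± 1.65, 6.83 ± 1.59 and 6.68 ± 1.53. Of the 31 genes 26 and 28 were above 1 in the 48 h arrays and none in either MPA array. The earlier times had 29 and 27 such genes (6 h), 2 and 10 (12 h) and 8 and 30 (24 h). Prss2, trypsinogen 2, was thus at 1.19 in MFP 24 h replicate 1 and at 6.36 in replicate 2. Ins2, insulin, was at 0.75 and 0.11 at 48 h (adjusted p 0.533), and of 16 islet genes none passed. The transcription factors of acinar cells were near the MPA level: Bhlha15 was at -0.53 and 0.15 and Rbpjl at 0.48 and 0.43 at 48 h. Against 24 h no member passed, and the 24 h arrays of Reg3b lay at -0.12 and 8.64. Of the 25 genes that followed the list, 2210010C04Rik, Dmbt1 and Meox2 rose, by 6.43, 5.65 and 1.18. Averaged over probe sets, Reg3b was at 6.07 (adjusted p 0.0672), and another probe set gave 5.70 for 2210010C04Rik and 0.65 for Meox2, neither of which passed.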

How the data were processed

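RNA from paraffin-embedded tumours (RNeasy FFPE kit, 200 ng) was hybridised to Affymetrix Mouse Genome 430 2.0 arrays, per the labels' protocols, and GCRMA is named in the submitters' processing notes with no version. The deposited log2 values are ratios to the mean of both MPA arrays taken on the linear scale, found from the values themselves (45099 of 45101 probe sets within 0.0001). This makes the MPA arrays narrower by construction, with an SD over genes of 0.29 and 0.30 against 0.81 and 0.75 at 48 h. Array number, 2 for each group, limits the precision.

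Probe sets with a single symbol in the platform annotation (34945) were kept, and the one with the largest SD over the 12 arrays stood for its gene, which gave 18193 genes. limma 3.58.1 (R 4.3.3) was fitted to all 12 arrays with group means and eBayes, and p-values were adjusted by Benjamini-Hochberg over all genes at 0.05. It was tested on simulated data for MFP 48 h versus MPA, with 200 changed genes of 18193 and noise drawn independently for each gene and array. There it recovered 21.6% of changes of 1, 76.1% of 2 and 93.5% of 3 on the log2 scale, with 5% false calls among the called. The data held 2272 calls and signals of other tissues shared by many genes, so these rates need not apply to the calls reported.

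The 52 gene lists and the members were chosen with earlier results of these data known. Of 1353 list entries 1243 were measured. The text names members of each list that passed, larger changes first, with members that did not pass for contrast. It also names the largest changes in each direction outside the pancreas set, among genes that passed and whose arrays did not overlap. Further names come from the largest differences in the direct tests among genes that also differed from MPA, and from 12 preset genes such as Pgr and Krt8. The pancreas set holds 31 listed genes and 25 whose correlation with them exceeded 0.9 over the 8 arrays outside the comparison. Promoters came from RefSeq (GRCm38.p6).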

Additional observations from a re-analysis of the deposited data

Results flagged for a closer look

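The direct test of 48 h against 24 h of mifepristone picked out 5 genes with the largest increases and 5 with the largest decreases among the genes that also differed from MPA at 48 h. Against MPA, another probe set of Ptx3 gave 0.01 (adjusted p 0.991) in place of 1.86, and Hnf4a averaged over probe sets gave -0.42 (adjusted p 0.211). Sfrp2, a secreted WNT regulator of stroma, was at -1.63 and -0.44 at 24 h and at 2.46 and 2.65 at 48 h, a difference of 3.59 ± 0.62 (limma, adjusted p 0.0131). Efemp1, a fibulin of the matrix, differed by 3.45 ± 0.58, Ccl6, a myeloid chemokine, by 3.23 ± 0.54, Lgr6, a receptor for R-spondins, by 2.79 ± 0.33, and Ptx3, a pentraxin, by 2.75 ± 0.52. In all 5 both 48 h arrays were above both 24 h arrays. The genes were picked by the test on these same arrays, so this adds no support.

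Among the decreases, F2, prothrombin, was at 2.65 and 2.98 at 24 h and at -1.10 and -1.32 at 48 h, a difference of -4.03 ± 0.31 (limma, adjusted p 0.000274). Hnf4a, a transcription factor of hepatocytes, differed by -3.26 ± 0.23, and 1300017J02Rik differed by -2.79 ± 0.26. The median of the hepatocyte list was 3.56 and 4.11 in the 24 h arrays, and its part in these differences was not tested. Cdo1, cysteine dioxygenase, differed by -3.65 ± 0.43, and Cyp2f2, a cytochrome P450, by -2.57 ± 0.44. Cyp2f2 was at 0.37 and -0.68 at 24 h and at -2.60 and -2.84 at 48 h.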

How the results depend on the processing

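The number of genes called depended on normalization, on single arrays and, against MPA and 24 h, on the arrays that set the spread. Quantile normalization also evens out the spread of the arrays, which the ratios make narrower in the MPA arrays by construction. For 48 h against MPA, quantile normalization left 3 genes and a fit on the 4 arrays alone left 43 (34 up, 9 down), against 2272, and leaving out 1 array gave 564 to 1855. For 48 h against no MPA, quantile normalization left 127 of 2277 (46 up, 81 down), a fit on the 4 arrays alone called 1675 (1148 up, 527 down), and leaving out 1 array gave 746 to 1539. For 48 h against 24 h, limma called 0 genes after quantile normalization, 809 at an unadjusted p under 0.05, a fit on the 4 arrays alone called 181 (19 up, 162 down) against 427, and leaving out 1 array gave 254 to 427. Subtracting array medians, averaging probe sets, keeping genes at or above the median SD, array weights, a robust fit, another choice of probe set and leaving out the pancreas set gave 1689 to 2264 calls against MPA, 1979 to 2412 against no MPA and 321 to 440 against 24 h. Values near 0 turned sign: with each of the 4 arrays left out in turn, Pgr ran from -0.14 to 0.41, with -0.02 when MPA replicate 1 was out, Wnt4 from -0.22 to 0.02, Krt8 from -0.15 to 0.18, Bhlha15 from -0.53 to 0.16 and Csn2 from -0.51 to 0.11. With another probe set, Egr2 was -0.23, Klf5 was 0.10, Pdgfra -0.13, Synpo2 -0.32 and Tgfbr1 -0.03. The cause was not tested. No paired analysis was possible because the labels give no replicate numbers.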

Other observations

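Of 30 measured interferon-stimulated and class I antigen presentation genes 4 rose and 2 fell, where 6.47% of all genes rose and 6.02% fell. No fall passed with any 1 of the 4 arrays left out. With replicate 1 or 2 of MPA left out the rises numbered 0 or 8, and with replicate 1 or 2 of MFP 48 h left out 1 or 0. Oasl2, an antiviral protein, was at -0.17 and 0.15 under MPA and at 0.91 and 0.98 at 48 h (limma, adjusted p 0.0121). Psmb8, a subunit of the immunoproteasome, was at -0.12 and 0.11 under MPA and at -1.31 and -0.93 at 48 h (adjusted p 0.0284), and averaged over probe sets it was at -0.54 and did not pass. Jun, a subunit of AP-1, fell by 1.25 ± 0.28 (adjusted p 0.0189), while the growth response genes Egr2 and Ier3 and the factor Klf6 rose by 1.14 ± 0.27, 1.40 ± 0.33 and 1.11 ± 0.22, and another probe set of Egr2 gave -0.23.

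Of 11 genes of nerve and glia Nes, Mal, Pmp22 and Egr2 rose, and 2, 5, 2 and 3 rose with the arrays left out in the order used above. Nes, nestin, which vessels also express, was at -0.62 and 0.43 under MPA and at 2.26 and 2.46 at 48 h. It rose by 2.45 ± 0.34 (limma, adjusted p 0.00369). Averaged over probe sets, the rise of Nes was 0.79 and still passed. Mal, a lipid raft protein that epithelia also express, was at 1.60 and 1.61 without MPA and at 2.18 and 2.90 at 48 h. Of 18 circadian genes Bhlhe41, a repressor of the clock, rose by 1.36 ± 0.25 and Cry1, a cryptochrome, fell by 1.07 ± 0.26, a share near that of all genes in each direction. With the arrays left out in the same order, 0, 1, 1 and 1 rose and 0, 0, 0 and 1 fell. Krt6a, a keratin of activated epidermis, was at 2.18 and 2.41 at 48 h and at 2.03 and 1.35 without MPA, and that difference did not pass (0.60 ± 0.47, adjusted p 0.475). Pf4, a chemokine of platelets and macrophages, was at 3.30 and 2.68 at 48 h and at -1.44 and -1.33 without MPA (4.37 ± 0.62, adjusted p 0.00290).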
